A study of Homo sapiens with 4 samples.

Results

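The 40 genes described here encode proteins of the nucleolus that make ribosomes, and they were followed in NGP cells exposed to Nutlin-3 or to its solvent. They were chosen by name as a functional group, with earlier results of these data known. Each name was matched to 1 Ensembl identifier among the 25693 human genes of the count table, which held all 40 genes. NGP is an established human neuroblastoma cell line that carries many copies of MYCN, and Nutlin-3 is a small molecule that keeps MDM2 from binding p53. Single cells of this 1 line were captured on the ddSeq droplet device and their polyadenylated RNA was counted from the 3′ end, as part of a benchmark of single-cell methods on a perturbed cell system. The ethanol group and the Nutlin-3 group had both been synchronised by serum starvation and were then exposed for 24 h. Each group had 2 libraries, one with ERCC spike-in RNA diluted 1000-fold and one with it diluted 10000-fold, and no difference in genotype.

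Ribosome production begins in the nucleolus, where RNA polymerase I transcribes the long precursor of the ribosomal RNAs. Small nucleolar RNPs then guide methylation and pseudouridylation of that precursor, and large sets of assembly factors fold and cut it into the small and the large subunit. MYC proteins, MYCN among them, are known to drive many of these genes through E-box sequences, and faulty ribosome assembly is known to stabilise p53 through the binding of free RPL5 and RPL11 to MDM2. The comparison below asked whether the nucleolar genes were lower in the Nutlin-3 pool, where MYCN itself was lower.

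Promoters are shown first because the E-box, the sequence that MYC proteins are known to bind, can be looked for in them. RefSeq promoter windows on GRCh38.p14, from 250 bases before to 50 bases after the annotated start, were found for 33 of the 40 symbols (the first listed window was taken for each gene), and none for NOLC1, TCOF1, NOP58, RRS1, BOP1, RRP1B and RRP12. The canonical E-box, CACGTG, which reads the same on both strands, occurred in 13 of the 33 windows, or 39.4%. It occurred in 7.43% of the windows of all 27305 genes in the table of promoters and in 10.4% of the 10190 windows whose gene passed the filter on low counts. CACGCG, searched on both strands, is close to the E-box in its letters and is no unrelated control. It occurred in 10 of the 33 windows, or 30.3%, against 11.4% of all windows and 19.1% of those of the genes that passed the filter. Of the 13 windows with CACGTG, 3 held it as well. A further 91 windows of other ribosome biogenesis genes held CACGTG in 27.5%. These matches are descriptions of letters in a window and do not show binding.

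The next 4 stretches are shown because each holds a CACGTG, in capitals, before the annotated start and outside annotated exons. They are UTP20 on the plus strand (chr12:101279855-101280104), UTP18 on the plus strand (chr17:51260296-51260527), UTP14A on the plus strand (chrX:129905914-129906120) and NOP10 on the minus strand (chr15:34343178-34343314). All are written 5′ to 3′ along the gene.
UTP20: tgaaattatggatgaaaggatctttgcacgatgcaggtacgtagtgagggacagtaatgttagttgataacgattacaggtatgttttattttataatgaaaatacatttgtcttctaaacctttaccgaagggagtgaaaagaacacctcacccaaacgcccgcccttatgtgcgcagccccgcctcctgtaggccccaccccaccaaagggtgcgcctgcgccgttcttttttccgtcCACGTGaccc
UTP18: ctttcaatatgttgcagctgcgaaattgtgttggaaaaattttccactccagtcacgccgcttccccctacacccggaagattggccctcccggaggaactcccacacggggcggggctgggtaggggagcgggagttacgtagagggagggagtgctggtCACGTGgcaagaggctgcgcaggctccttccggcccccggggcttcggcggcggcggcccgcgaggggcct
UTP14A: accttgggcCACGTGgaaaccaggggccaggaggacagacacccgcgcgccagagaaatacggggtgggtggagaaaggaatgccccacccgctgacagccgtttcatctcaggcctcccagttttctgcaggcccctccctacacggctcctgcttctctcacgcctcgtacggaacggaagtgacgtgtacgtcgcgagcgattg
NOP10: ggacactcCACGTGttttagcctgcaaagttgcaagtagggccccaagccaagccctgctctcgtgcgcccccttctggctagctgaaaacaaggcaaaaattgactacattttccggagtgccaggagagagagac

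The E-box shown begins 10 bases before the start of UTP20, 89 before that of UTP18, 241 before that of UTP14A and 170 before that of NOP10. A second CACGTG, outside the stretches shown, begins 11 bases before the start in NOP10 and at base 5 after it in UTP18. These 4 genes had log2 fold changes of -0.29, 0.01, -0.03 and -0.09 in the comparison described below. Over the 13 genes with the E-box the median log2 fold change was -0.01 (range -0.29 to 0.34, 8 below 0). Over the 20 without it the median was -0.001 (range -0.21 to 0.12, 10 below 0).

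The counts came as 500 columns, 250 named as treated and 250 as untreated, and no name gives the library. Each treatment was therefore 1 pool, with 1342134 human counts in ethanol and 1301232 in Nutlin-3, and no difference has a replicate check or a p-value. Of the 250 column names in each pool, 219 occurred in both, and the totals of columns that shared a name had a Pearson r of 0.991 on the log2 scale. This correlation is a description over 219 names, so columns are not treated as cells here. In each pool 113 large columns had over 4000 counts and 137 small columns had fewer. One name stood apart in both pools by its MYCN counts, 53 in ethanol and 47 in Nutlin-3. All 11 markers of adrenergic neuroblastoma fixed for the line were present. Their log2 fold changes ran from -0.10 (HAND2, 342 counts with ethanol and 309 with Nutlin-3) to 0.49 (CHGA, 411 and 559), with 8 of 11 above 0 and a log2 ratio of their sums of 0.18 (0.10 to 0.26). Of 7 markers of other cell types, 4 were in the table, with 74 counts together in ethanol and 123 in Nutlin-3 (LYZ 24 and 49, COL1A1 29 and 47, EPCAM 16 and 21, COL3A1 5 and 6), and PTPRC, CD3E and PECAM1 matched no row. The part of these markers in the results was not tested.

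MYCN (ENSG00000134323, chromosome 2, 15940564 to 15947007 in GRCh38) had 1140 counts with ethanol and 877 with Nutlin-3. Its log2 fold change was -0.33, with a counting interval of -0.46 to -0.20. Fold changes are relative to the human counts of each pool, with 0.5 counts added. All intervals here are 95% exact intervals and cover counting error only. They treat counts as Poisson, for which the ratio of variance to mean is about 1. Over the large columns that ratio was 3.26 for MYCN in ethanol and 3.39 in Nutlin-3. Its median over the 40 nucleolar genes was 0.167 and 0.171. The intervals may thus be too narrow for MYCN and may misstate the spread for most nucleolar genes. The MYCN interval as given lay below 0, and the same gene served as the reference for the nucleolar group.

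The nucleolar group as a whole was nearly level between the pools. Its 40 members summed to 6120 counts with ethanol and 5869 with Nutlin-3. They took 0.456% of the human counts in ethanol (0.445 to 0.468) and 0.451% in Nutlin-3 (0.440 to 0.463), a log2 ratio of -0.02 (-0.07 to 0.04). The intervals of both shares overlapped, and the interval of the ratio did not reach the value of MYCN. In pooled counts, fewer cells that express a gene and less RNA per cell cannot be told apart.

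Member by member, the median log2 fold change was -0.02, with the central 50% of members between -0.07 and 0.04. All 40 passed the filter on low counts, 23 being below 0 and 17 above. Of all genes that passed it, 50.4% were below 0. Over the 14830 genes that passed the filter the median was -0.002 and the central 50% lay between -0.15 and 0.16. With a log2 fold of 0.25 as the mark for a difference of note, 1 member (UTP20) was at or below -0.25 and 1 (PES1) at or above 0.25. Of all genes that passed the filter, 16.0% were at or below -0.25 and 18.3% at or above 0.25. Low counts scatter more, so the 8844 genes whose mean reached 50 CPM (counts scaled to a common library size) are the nearer background, and 39 of the 40 members were among them. In that background 7.01% were at or below -0.25 and 6.49% at or above 0.25. No member (0 of 40) had a value at or below that of MYCN, a mark that 3.47% of the 8844 genes and 11.9% of the 14830 genes reached.

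**Figure D1:**
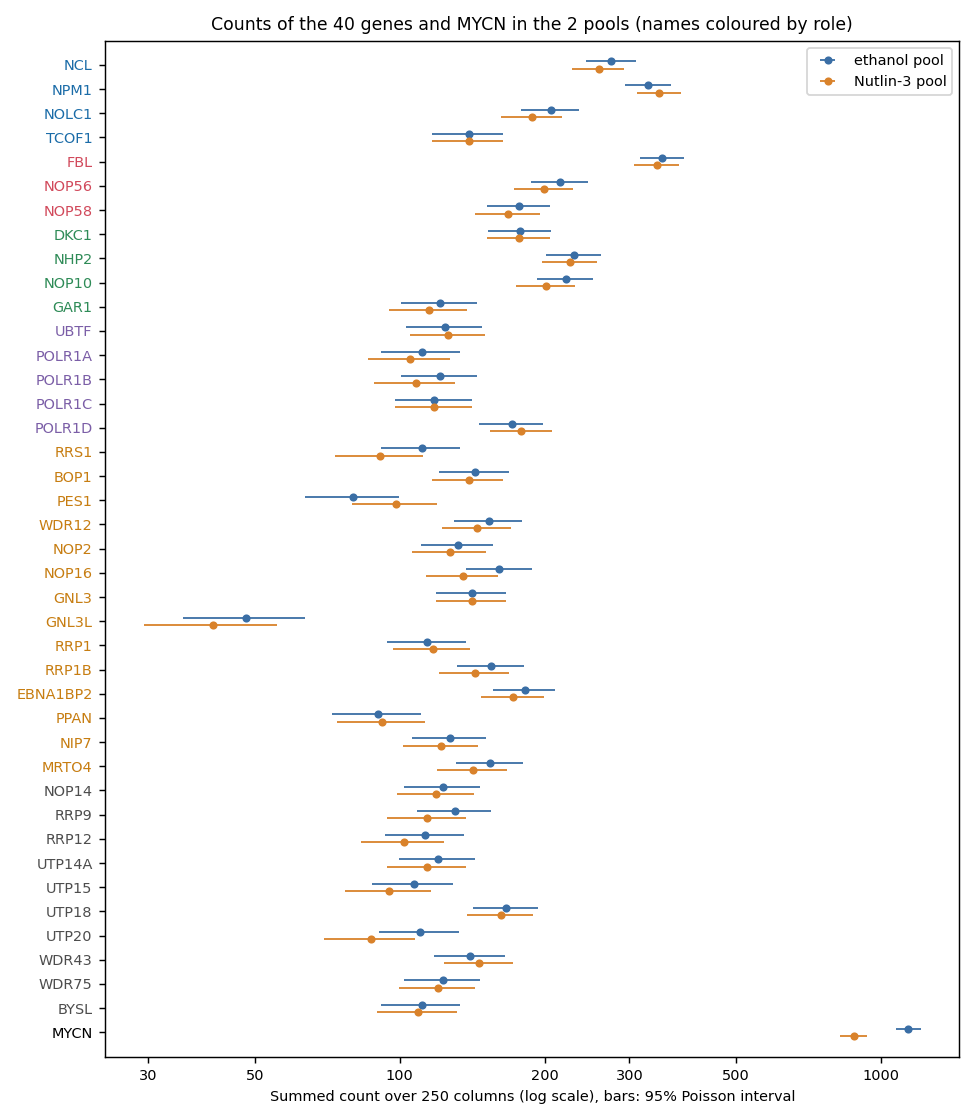
Summed counts of the 40 genes and MYCN in the ethanol and the Nutlin-3 pool (x axis, log scale, bars are 95% Poisson intervals), with gene names coloured by role. Blue and orange bars overlap for each nucleolar gene, while MYCN had 1140 counts with ethanol and 877 with Nutlin-3.

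The nucleolar chaperones were level. NPM1 (nucleophosmin, ENSG00000181163, chromosome 5, 171387116 to 171411137), a chaperone of histones and of ribosomal particles that also binds the ARF tumour suppressor, had 328 counts with ethanol and 346 with Nutlin-3. Its log2 fold change was 0.12 (-0.10 to 0.34), one of the higher values of the group. NCL (nucleolin, ENSG00000115053, chromosome 2, 231453531 to 231483641), an RNA-binding protein that acts on the precursor RNA, had 275 counts with ethanol and 259 with Nutlin-3, a log2 fold change of -0.04 (-0.29 to 0.21). Neither interval left 0 out. TCOF1 (treacle), which links polymerase I to early processing, had 139 counts in both pools, and NOLC1, a partner of small nucleolar RNPs, had 206 and 188. One column of ethanol alone held 20 of the NPM1 counts, and without the 2 columns of that name the fold change was 0.18 (-0.04 to 0.41).

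The core proteins of the methylating box C/D RNPs were likewise close. FBL (fibrillarin, ENSG00000105202), the methyltransferase itself, had 351 counts with ethanol and 342 with Nutlin-3, a log2 fold change of 0.01 (-0.21 to 0.23). NOP56 (ENSG00000101361), one of the paired scaffold proteins, had 215 and 199 counts, which gave a log2 fold of -0.07 (-0.35 to 0.22). NOP58, its partner, had 177 and 168. Summed, the 3 genes had 743 counts with ethanol and 709 with Nutlin-3, a log2 ratio of -0.02 (-0.17 to 0.13).

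The box H/ACA RNPs convert uridine to pseudouridine and also belong to telomerase. DKC1 (dyskerin, ENSG00000130826, chromosome X, 154762742 to 154777689), their enzyme, had 178 counts with ethanol and 177 with Nutlin-3, a log2 fold change of 0.04 (-0.27 to 0.35). Its small partners NHP2, NOP10 and GAR1 had 230, 221 and 121 counts in ethanol. In Nutlin-3 they had 226, 201 and 115. Summed, the 4 genes gave a log2 ratio of -0.02 (-0.17 to 0.13), with none past 0.25 in either direction.

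The polymerase I genes showed no common direction. UBTF, the factor that opens ribosomal DNA for transcription, had 124 counts with ethanol and 126 with Nutlin-3. POLR1A and POLR1B, the subunits that form the active centre, had 111 and 121 counts in ethanol and 105 and 108 in Nutlin-3. POLR1C and POLR1D are shared with RNA polymerase III. POLR1C had 118 counts in both pools, and POLR1D had 171 and 179, a log2 fold change of 0.11 (-0.20 to 0.42). The 5 genes had a median of 0.05, with 3 above 0 and 2 below, and a log2 ratio of their sums of 0.02 (-0.14 to 0.18).

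The 14 factors of the large subunit spread more widely. PES1, which with BOP1 and WDR12 forms the PeBoW complex needed for processing of the large-subunit RNA, had 80 counts with ethanol and 98 with Nutlin-3. Its log2 fold change of 0.34 (-0.10 to 0.78) was the highest of the 40. Its partners did not share that value, with 143 and 139 counts for BOP1 (0.00, -0.34 to 0.35) and 153 and 145 for WDR12 (-0.03, -0.37 to 0.31). RRS1, which helps to load the 5S RNP, had 111 and 91 counts, which gave a log2 fold of -0.24 (-0.66 to 0.17). NOP16 had 161 and 135 counts, which gave a log2 fold of -0.21 (-0.55 to 0.13). RRP1, a factor of large-subunit assembly, had 114 and 117 counts, which gave a log2 fold of 0.08 (-0.30 to 0.47). The intervals of all of these genes included 0.

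Among the other large-subunit factors the values stayed near 0, except for GNL3L. The RNA methyltransferase NOP2 had 132 counts with ethanol and 127 with Nutlin-3, and GNL3 (nucleostemin), a nucleolar GTPase, had 141 in both. The GTPase GNL3L was the sparsest member, with 48 and 41 counts, which gave a log2 fold of -0.18 (-0.82 to 0.45). RRP1B, EBNA1BP2, PPAN, NIP7 and MRTO4 ranged from -0.07 to 0.08. Over the 14 genes the median was -0.02, with 9 below 0 and 5 above.

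The small-subunit processome, which gathers on the precursor RNA with the U3 small nucleolar RNA, had the lowest sum ratio of the 6 roles. Its 10 genes had 1243 counts with ethanol and 1168 with Nutlin-3, a log2 ratio of -0.05 (-0.16 to 0.07). That interval overlapped those of all other roles, and by median the box C/D genes were lower (-0.030 against -0.015). UTP20, a very large scaffold protein, had 110 and 87 counts, and its log2 fold change of -0.29 (-0.72 to 0.13) was the lowest of the 40. RRP9, a protein of the U3 RNP, had 130 and 114 counts (-0.14, -0.52 to 0.23), and UTP15 had 107 and 95 (-0.13, -0.54 to 0.29). WDR43, which belongs to the same subcomplex as UTP15, had 140 and 146 counts (0.11, -0.24 to 0.45). NOP14, RRP12, UTP14A, UTP18, WDR75 and BYSL ranged from -0.10 to 0.02. The role held 6 values below 0 and 4 above, and all named intervals included 0.

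**Figure D2:**
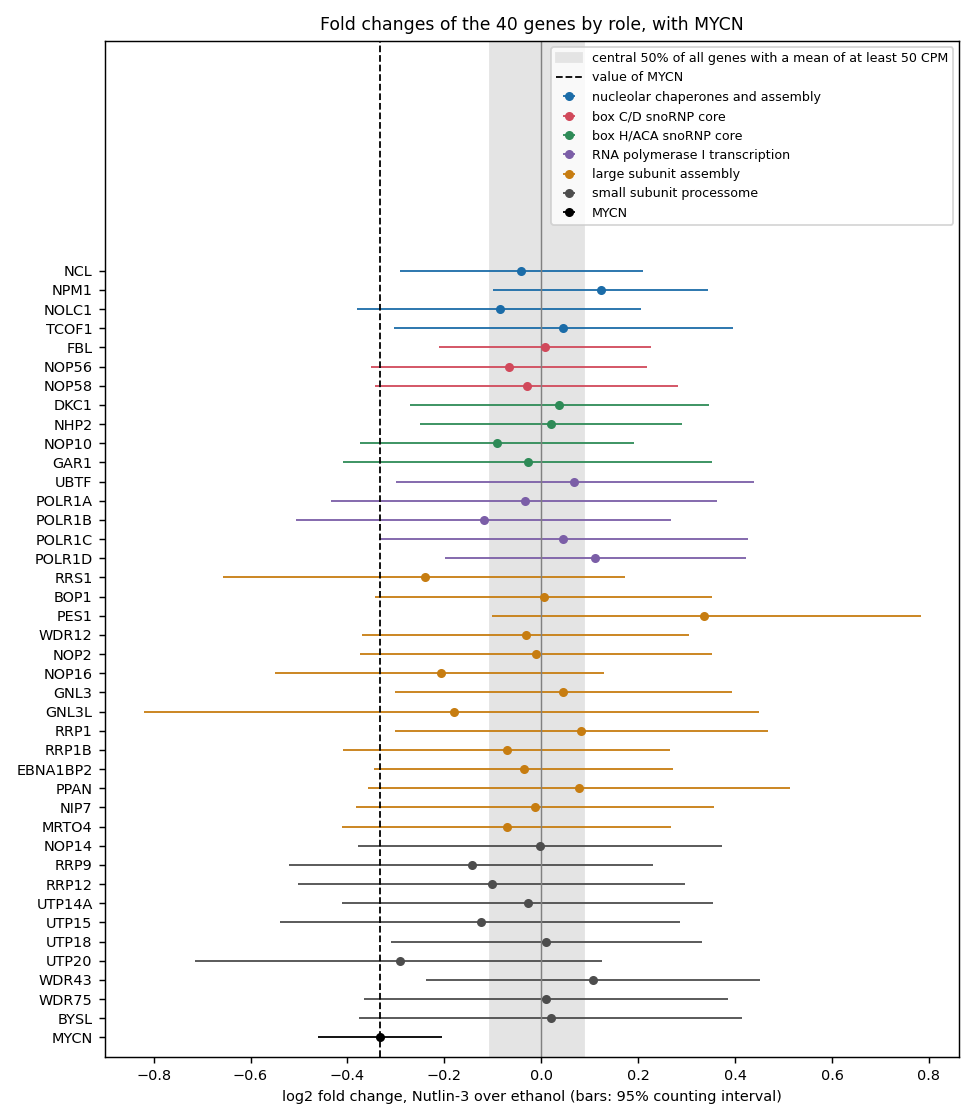
Log2 fold change with Nutlin-3 relative to ethanol (x axis, bars are 95% counting intervals) for the 40 genes by role and for MYCN, with the central 50% of the 8844 genes whose mean reached 50 CPM in grey. Every nucleolar point lies to the right of the dashed MYCN value of -0.33, and most lie within or close to the grey band.

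Other genes of the pathway were also centred near 0. Of 107 further ribosome biogenesis genes, 106 passed the filter, with a median log2 fold change of 0.01, 52 below 0 and 54 above. At the mark of 0.25, 2 were lower and 2 higher, or 1.89% in each direction. Their sum was 13352 counts with ethanol and 12964 with Nutlin-3, 0.995% and 0.996% of human counts. The lowest with at least 100 counts in total were TAF1A, a polymerase I initiation factor, with 99 and 77 counts (-0.32, -0.77 to 0.13), PNO1 with 136 and 108 (-0.29, -0.67 to 0.09) and SENP3 with 99 and 82 (-0.22, -0.67 to 0.21). The highest of those was NOP53, which binds the 5S RNP and is known as a regulator of p53. It had 169 counts with ethanol and 222 with Nutlin-3, a log2 fold change of 0.44 (0.14 to 0.74). Next among genes with at least 100 counts were DDX54 and RCL1, each with 85 and 97 (0.23, -0.20 to 0.67). DHX37, with 33 and 41 counts and thus under that limit, was the other gene above 0.25 (0.35, -0.34 to 1.07).

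The ribosomal proteins through which the nucleolus acts on MDM2 had intervals above 0, with fold changes short of the mark of 0.25. RPL5 had 365 counts with ethanol and 420 with Nutlin-3, a log2 fold change of 0.248 (0.04 to 0.45). RPL11 had 622 and 692 counts, which gave a log2 fold of 0.20 (0.04 to 0.36). Other ribosomal protein genes were not set beside them, so whether these values are particular to RPL5 and RPL11 was not tested. CDKN2A, whose ARF product is held by NPM1, had 162 and 153 counts (-0.04, -0.37 to 0.29), and HEXIM1 had 121 in both. The median of these 4 genes was 0.12 in all columns, 0.11 in large columns and 0.47 in small columns. In the columns whose name occurs in 1 treatment only, 2 of them passed the filter, with a median of -0.042. The reads of a gene with 2 products, such as CDKN2A, do not separate them.

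Proliferation genes were set beside the nucleolar genes as lists that also differ in cycling cells. Of 43 S phase genes, 42 passed the filter, their median was -0.28, and 23 were at or below -0.25. The 54 G2/M genes had a median of -0.25, and 27 were at or below -0.25. Among the nucleolar genes the number was 1 of 40. As sums the S phase genes had a log2 ratio of -0.29 (-0.34 to -0.23) and the G2/M genes one of -0.27 (-0.32 to -0.23), and neither interval overlapped that of the nucleolar sum (-0.07 to 0.04). The difference between these lists has no replicate check, and the lists were chosen with earlier results of these data known.

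The class of columns mattered for the proliferation genes, and little for the nucleolar sum. In the large columns the nucleolar genes had 5087 counts with ethanol and 4914 with Nutlin-3, a log2 ratio of -0.01 (-0.07 to 0.04). In the small columns they had 1033 and 955, a log2 ratio of -0.01 (-0.14 to 0.12). The G2/M genes moved from -0.20 (-0.25 to -0.15) in large columns to -0.54 (-0.64 to -0.44) in small ones, and the S phase genes from -0.22 (-0.28 to -0.16) to -0.79 (-0.96 to -0.62). MYCN had 928 and 692 counts in large columns (-0.38, -0.53 to -0.24). In small columns it had 212 and 185 (-0.06, -0.36 to 0.23), and both intervals overlapped. MYCN had exactly 1 count in 88 of 137 small ethanol columns and in 98 of 137 small Nutlin-3 columns, and 0 counts in 0 and 1 of them, so its sum there follows the number of columns and says little of its level.

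**Figure D3:**
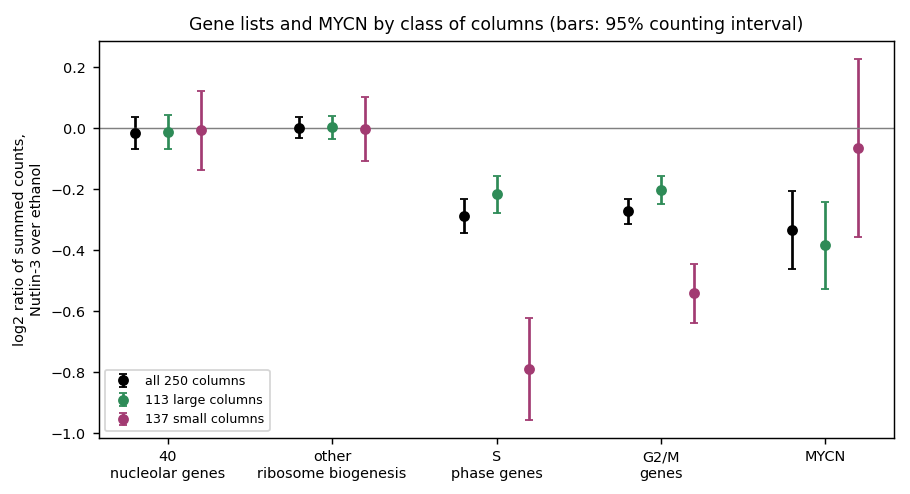
Log2 ratio of summed counts, Nutlin-3 over ethanol (y axis, bars are 95% counting intervals), for 4 gene lists and MYCN in all columns, in the 113 large and in the 137 small columns of each treatment. The nucleolar and other ribosome biogenesis genes sit at 0 in each class, and the S phase and G2/M genes lie lowest in the small columns.

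Single members could differ by class. NOP16 had 128 and 125 counts in the large columns but 33 in ethanol and 10 in Nutlin-3 in the small ones, a log2 fold change there of -1.54 (-2.78 to -0.54). MRTO4 had 34 and 20 counts in the small columns (-0.62, -1.51 to 0.21), and RRP9 had 15 and 7 (-0.91, -2.50 to 0.41). UBTF had 9 and 16 (0.93, -0.30 to 2.32) and POLR1D had 30 and 38 (0.47, -0.26 to 1.21). Among the 25 members that passed the filter in small columns 4 were at or below -0.25 and 7 at or above 0.25, where 31.3% and 32.5% of the 4762 genes that passed there were. Small columns held few counts per gene, and the value of NOP16 was picked as the furthest of many.

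How the counts fell over columns limits how large a difference could appear. In the large ethanol columns 36 of the 40 members had a median of exactly 1 count, and in Nutlin-3 37 did. TCOF1 had exactly 1 count in 106 of 113 ethanol columns and in 98 of 113 Nutlin-3 columns. The ratio of variance to mean, which is about 1 for Poisson counts, had a median over members of 0.167 in ethanol and 0.171 in Nutlin-3, and was under 0.5 for 37 of 40 members in each pool. MYCN, by contrast, had a median of 8 counts per large column in ethanol (lowest 2, highest 53) and 5 in Nutlin-3 (lowest 2, highest 47), with ratios of 3.26 and 3.39. Where nearly every column holds exactly 1 count of a gene, its sum follows the number of columns, and a level sum there does not bound a change in RNA.

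For the members with the lowest and the highest fold change, the number of large columns at 0 restates the same counts and adds no second observation. UTP20 had 0 counts in 19 large ethanol columns and in 34 large Nutlin-3 columns, and PES1 in 37 and 23. Median totals of the large columns were 10763 and 10647, and these numbers were not thinned to a common depth. The line has no cell type that lacks these genes, so the background of free RNA is unknown. Per large column NPM1 had between 1 and 20 counts with ethanol and between 1 and 7 with Nutlin-3, at a median of 2 in both. FBL had between 1 and 9 and between 1 and 11, also at a median of 2.

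**Figure D4:**
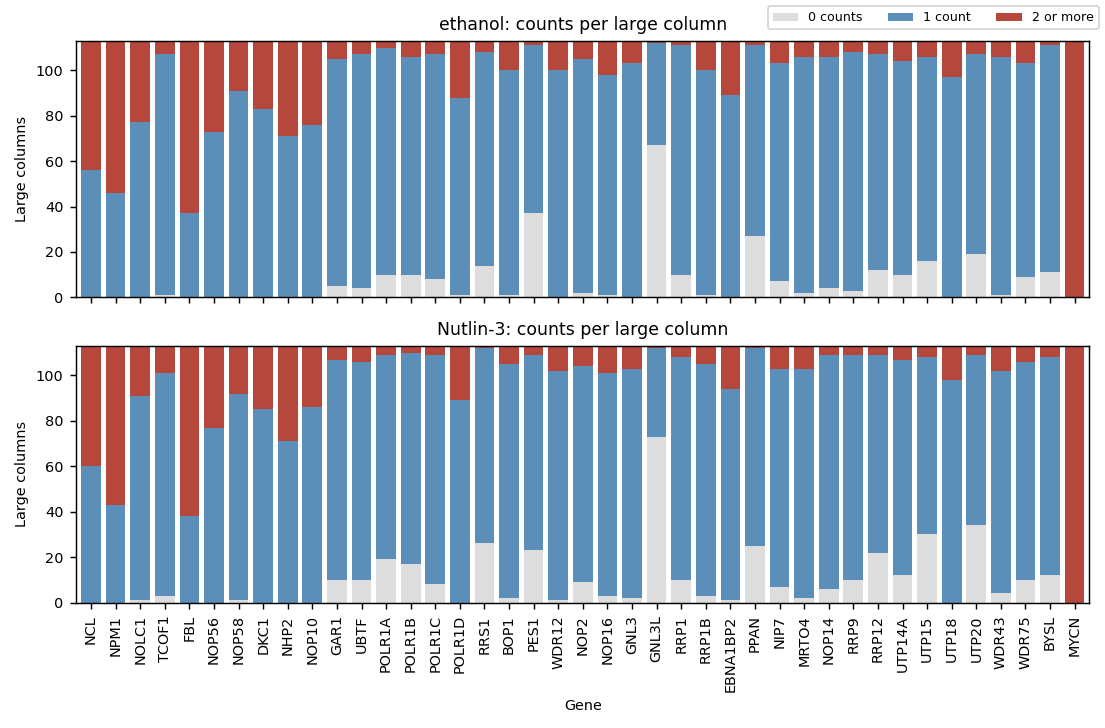
Number of large columns (y axis, 113 per treatment) in which each gene had 0, 1, or 2 or more counts, for ethanol above and Nutlin-3 below. Most of the 40 genes had exactly 1 count in most columns, whereas MYCN had 2 or more in every one.

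In the small columns most members were sparse, and their sum was level there too. Members with more counts were again mostly at 0 or 1 per small column, with a ratio of variance to mean in ethanol of 0.452 for NCL and 0.370 for FBL. The 33 members with a mean under 0.3 counts per small column had 521 counts with ethanol and 472 with Nutlin-3, a log2 ratio of -0.04 (-0.22 to 0.15). In the same range 40 S phase genes had 657 and 350 counts, a log2 ratio of -0.80 (-0.99 to -0.61), and 40 G2/M genes had 1089 and 640, a log2 ratio of -0.66 (-0.80 to -0.52). The 104 other ribosome biogenesis genes in this range had 1376 and 1248 counts, a log2 ratio of -0.04 (-0.15 to 0.08). The limit of 0.3 was chosen after the counts per column had been seen.

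Column by column, the share of counts on nucleolar genes had nearly the same median in both pools. In large columns it had a median of 0.425% in ethanol (lowest 0.351, highest 0.735) and 0.420% in Nutlin-3 (lowest 0.363, highest 0.656). In small columns the medians were 0.683% and 0.680%, with ranges from 0 to 1.97% and from 0 to 1.68%. Both highest values in large columns belonged to the column name that also had the highest MYCN counts.

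Whether columns rich in MYCN were rich in nucleolar transcripts was described over the large columns, where both shares have the column total as denominator. Pearson's r of the 2 shares was 0.46 over 113 columns in ethanol and 0.46 over 113 in Nutlin-3, and Spearman's rho was -0.20 and 0.05. Without the 1 name that stood apart, r was -0.26 and -0.02 over 112 columns each, so the positive values rested on that name. In the 137 small columns r was 0.08 in ethanol and 0.03 in Nutlin-3. Apart from that name, r thus lay between -0.26 and 0.08. Most members had a median of exactly 1 count per large column, so their share there could hardly follow MYCN. These values of r therefore do not decide whether the 2 go together.

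Scaling to spike-in counts moved all genes together. ERCC species had 2989 counts with ethanol and 4007 with Nutlin-3, and on that scale the median of all genes was -0.47. The nucleolar median was then -0.49 and MYCN was at -0.80. On it 39 of 40 members were at or below -0.25 and 0 at or above 0.25, where 79.9% and 5.92% of all genes that passed the filter were. This scaling subtracts the same constant from every gene, so distances between genes do not change by construction. Each pool joins 2 dilutions of the spike-in in unknown proportion, so a lower content of RNA and a different mixture cannot be told apart.

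Some members share sequence or place with other genes, which can blur their counts. NPM1 has 45 pseudogenes named after it in GENCODE release 29, and the 37 of them in the table had 299 counts with ethanol and 280 with Nutlin-3. Those of NOP56 had 90 and 71 counts and those of NHP2 67 and 42. PPAN, NOP2 and RRS1 overlap another coding gene on the same strand, PPAN through its read-through with P2RY11. Gene bodies of 17 members overlap a gene on the opposite strand, and the sources used here do not say whether the counting used strand. The values of these genes are uncertain to that extent.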

How the data were processed

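Polyadenylated RNA of NGP cells was read from the 3′ end with the SureCell kit on the ddSeq device, per the labels' protocols. The authors deposited whole-number raw counts for 25693 human genes, 62 ERCC species and 500 columns. For the aligner, build, annotation, molecular-tag handling and cell filter the entry is: not given in the sources used here. Column names give the treatment and not the library, and 0 columns were left without a treatment. The 250 columns of a treatment were summed into 1 pool, so the tests planned for library sums were not run. No doublet caller was run, because columns were only summed, and whether doublets had been removed is unknown here.

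Pools were scaled by TMM factors of edgeR 4.0.16 in R 4.3.3 (1.0003 for ethanol, 0.9997 for Nutlin-3) after its filter on low counts with a minimum of 10. Fold changes used 0.5 added counts, and their intervals came from the exact binomial share of the count. The calculation recovered known fold changes when tested on simulated pools with Poisson counts. Counts over the large columns here did not spread like Poisson counts, so this checked the calculation and not the intervals on these data. Symbols were matched by Ensembl identifier for 25422 genes, and gene positions came from GENCODE release 29. Full values were given for NCL, NPM1, FBL, NOP56, DKC1, MYCN and the 5 lowest and 5 highest members with at least 100 counts over both pools. For other ribosome biogenesis genes they were given for the 3 lowest and 3 highest. Values of single members in small columns were named after they had been seen. The members and lists were chosen with earlier results of these data known. Alternatives were other scaling (DESeq2 1.42.0 size factors, ERCC counts), other filters, added counts, thinning and subsets of columns. Intervals and counts cover counting error only, and counts are not certain to be independent molecules.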

Additional observations from a re-analysis of the deposited data

How the results depend on the processing

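No paired analysis was possible because no column name gives its library. Tests over 4 library sums, the replicate block and leaving out single libraries were not run either. Leaving out the name that stands apart and the limit on sparse genes were chosen after the data were seen. For single members, 341 of 350 values under 10 alternatives other than ERCC scaling stayed within the counting interval of the first value. The other 9 left it, 7 of them in small columns alone. The filters leave each fold as it was and DESeq2 factors shift all folds alike. The alternatives also reuse the same counts, so staying within a wide interval was largely given and is no check of the folds. Size factors of DESeq2, thinning and removal of the name that stands apart each gave 2 members at or below -0.25 in place of 1, and large columns alone gave 0. Without that name r was -0.26 for ethanol columns and -0.020 for Nutlin-3 columns. Large columns alone gave list medians of -0.18 (S phase) and -0.17 (G2/M).

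In small columns alone the member median was 0.085 over 25 members, and MYCN was at -0.063. Of these members 4 were lower and 7 higher, against 31.3% and 32.5% of all genes that passed there. Medians there were -0.13 for box C/D, 0.085 for box H/ACA, 0.70 for polymerase I (2 genes), 0.23 for the small subunit, 0.024 for other ribosome biogenesis genes, -0.74 for S phase, -0.55 for G2/M and 0.47 for the 5S RNP list. Columns whose name occurs in 1 treatment only, 31 per treatment, left 6 members, with a median of 0.21. Of these, 0 were lower and 1 higher, and the log2 ratio of sums was 0.12. The shares of all genes in these columns are not given here. Medians there were 0.21 for chaperones, 0.077 for box C/D and 0.13 for box H/ACA (2 genes each). They were -0.089 for other ribosome biogenesis genes (3 genes), -1.28 for S phase (1 gene), -0.70 for G2/M (10 genes) and -0.042 for the 5S RNP list (2 genes).

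ERCC scaling subtracts 1 constant from each gene. It gave a member median of -0.49 (39 lower and 0 higher, against 79.9% and 5.92% of all genes), a ratio of sums of -0.48 and -0.80 for MYCN. List medians were -0.47 for chaperones, -0.50 for box C/D, -0.47 for box H/ACA, -0.42 for polymerase I, -0.49 for the large and -0.48 for the small subunit. They were -0.46 for other ribosome biogenesis, -0.75 for S phase, -0.72 for G2/M and -0.35 for the 5S RNP list. TMM or DESeq2 factors, the filter and added counts do not enter the ratio of sums, which has no value under them. The cause of these differences was not tested.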
